A study of Mus musculus with 12 samples.

Results

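The genes described here are 10 imprinted growth regulators, *H19*, *Igf2*, *Dlk1*, *Meg3*, *Peg3*, *Peg10*, *Cdkn1c*, *Grb10*, *Snrpn* and *Mest*, out of 38911 genes listed in the deposited count files. They were taken by name, and all 10 passed the filter on low counts. The RNA came from day 4 gastruloids, elongating aggregates of mouse embryonic stem cells (ESCs), all made from 1 ESC line, E14TG2a, and all given the Wnt agonist CHIR on day 2 of the protocol. From day 3 to day 4 the medium held 1X glucose (21.25 mM, the control), no glucose, 3X glucose (63.75 mM), or 5 mM of the glucose analog 2-deoxy-D-glucose (2-DG) in 1X glucose. Each of the 4 groups had 3 libraries of polyA RNA. Each library pooled gastruloids of 1 treatment from 1 plate, which libraries of other treatments may share. Within a group, 1 library came from ESCs labelled passage 13, 1 from passage 15 and 1 from passage 16, so that each passage also had 4 libraries, 1 of each treatment. The ESCs had been grown on feeder fibroblasts for their first 3 passages, and were cultured in 2iLIF medium after thawing.

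An imprinted gene is expressed mainly from 1 parental copy, because a control region nearby carries DNA methylation from only the egg or only the sperm. Imprinted genes lie in clusters, in which a long noncoding RNA and its protein-coding neighbors often come from opposite parental copies, and many of them raise or restrain growth of the fetus and placenta. The methylation of the control regions is known to be lost or gained in cultured ESCs. Of the genes here, *Igf2*, *Dlk1*, *Peg3*, *Peg10*, *Snrpn* and *Mest* are usually expressed from the paternal copy, and *H19*, *Meg3*, *Cdkn1c* and *Grb10* from the maternal copy. Neither methylation nor the parental copies were measured in these libraries, which give the total RNA of a gene.

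The total per library was 31902471 to 45956080 counts. Markers of mesoderm, the tissue the protocol induces, reached 1 CPM (a gene's counts scaled to the total of its library) in at least 1 library for 9 of the 10 genes listed, *Hand1* being the exception. The passage 13 libraries stood apart from the rest, and 46.1% of the 16966 genes tested passed an adjusted p-value of 0.05 between them and passages 15 and 16 in the quasi-likelihood test of edgeR, the test behind each adjusted p below. CPM are scaled with TMM factors. Treatment groups were fitted without a term for passage, and another fit with the passage as a block compares the libraries within passages. In bulk RNA, fewer cells of a type and less RNA per cell cannot be told apart.

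Promoters of 5 of these genes are shown. *Igf2* also differed between passages below, and its windows are not printed. Of the 5 shown, *Dlk1*, *Peg3*, *Grb10* and *Meg3* differed between passages, and *Mest* was called in 2-DG. Each runs 5′ to 3′ from 250 bases before to 50 after a RefSeq start (assembly GRCm38.p6), and capitals mark each CG, the dinucleotide that carries DNA methylation.
*Dlk1*, chr12:109452573-109452872, plus strand: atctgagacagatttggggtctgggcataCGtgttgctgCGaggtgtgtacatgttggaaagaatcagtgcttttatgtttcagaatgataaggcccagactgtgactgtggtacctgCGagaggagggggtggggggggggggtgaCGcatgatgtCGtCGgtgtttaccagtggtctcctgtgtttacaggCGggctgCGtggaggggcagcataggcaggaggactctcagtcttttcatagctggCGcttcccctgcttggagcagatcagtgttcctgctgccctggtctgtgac
*Meg3*, chr12:109540746-109541045, plus strand: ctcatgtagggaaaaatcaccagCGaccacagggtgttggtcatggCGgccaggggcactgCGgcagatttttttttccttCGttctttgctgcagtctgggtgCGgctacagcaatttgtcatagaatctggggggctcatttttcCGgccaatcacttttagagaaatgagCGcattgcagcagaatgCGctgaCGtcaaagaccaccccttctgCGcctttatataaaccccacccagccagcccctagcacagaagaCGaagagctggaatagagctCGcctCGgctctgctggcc
*Peg3*, chr7:6730370-6730669, minus strand: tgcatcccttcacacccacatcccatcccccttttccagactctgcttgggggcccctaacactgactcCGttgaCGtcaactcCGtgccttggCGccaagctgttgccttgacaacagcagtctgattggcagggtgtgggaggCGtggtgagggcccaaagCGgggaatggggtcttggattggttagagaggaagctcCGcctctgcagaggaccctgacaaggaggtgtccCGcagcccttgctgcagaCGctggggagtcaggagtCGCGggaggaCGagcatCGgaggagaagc
*Grb10*, chr11:12037371-12037670, minus strand: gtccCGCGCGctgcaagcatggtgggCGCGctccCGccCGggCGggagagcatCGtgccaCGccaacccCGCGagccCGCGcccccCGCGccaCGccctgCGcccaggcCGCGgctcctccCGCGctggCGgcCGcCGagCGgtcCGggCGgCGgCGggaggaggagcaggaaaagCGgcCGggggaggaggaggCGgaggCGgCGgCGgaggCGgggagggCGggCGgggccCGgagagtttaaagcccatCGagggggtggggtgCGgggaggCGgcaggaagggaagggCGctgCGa
*Mest*, chr6:30737800-30738099, plus strand: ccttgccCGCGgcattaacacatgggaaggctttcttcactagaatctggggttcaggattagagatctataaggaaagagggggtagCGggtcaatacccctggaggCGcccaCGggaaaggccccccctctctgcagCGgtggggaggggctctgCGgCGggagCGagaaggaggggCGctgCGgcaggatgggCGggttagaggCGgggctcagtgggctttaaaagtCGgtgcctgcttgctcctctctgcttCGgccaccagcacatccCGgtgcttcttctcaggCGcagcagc
The *Grb10* window held 45 CG, the *Mest* window 17, the *Meg3* and *Peg3* windows 13 each and the *Dlk1* window 9. *Grb10*, *Mest* and *Meg3* also have windows with fewer CG, which held 9, 8 and 1 and are not printed. Over all 32851 mouse promoter windows of 300 bases the median was 7, and 11.7% held at least 30. RefSeq windows were matched for 7 of the 10 genes, and *H19*, *Peg10* and *Cdkn1c* had no entry. These were 17 windows in all, with 1 to 45 CG and a median of 9. The hexamer TGCCGC, which the imprint-protecting zinc finger protein ZFP57 binds when methylated, was searched on both strands and lay in 6 of these 17 windows (35.3%), against 11.6% of all windows. The 6 include a pair of *Mest* windows that start 3 bases apart and share their matches. Among those printed, the *Mest* window held it at 2 places and the *Grb10* and *Meg3* windows at 1 place each, and it contains a CG itself. The YY1 core AAGATGG was in 0 of the 17 windows and in 6.34% of all. A match describes the letters of these windows and says nothing of binding or methylation in the gastruloids.

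The 10 genes covered a wide range of levels. Per kilobase of transcript, which allows genes to be compared, *Igf2*, a fetal growth factor at chr7:142650768-142666816, was the highest, with a median of 207 CPM per kilobase over the 12 libraries (range 137 to 300). Its lowest library lay above the highest library of every other gene of the group. *Mest*, which encodes a hydrolase-like protein (median 85.7 CPM per kilobase), *Grb10*, an adaptor that damps insulin and insulin-like growth factor (IGF) receptor signaling (68.4), and *Peg3*, a zinc finger protein gene (68.3), followed with overlapping ranges. *Peg10*, a retrotransposon-derived gene needed for the placenta, was at 37.4 (range 19.7 to 100), and the noncoding RNA *Meg3* at 37 (range 28 to 49.9). Lower still were *Cdkn1c*, an inhibitor of cyclin-dependent kinases (20), the noncoding RNA *H19* (14.4), the splicing protein gene *Snrpn* (10.2) and *Dlk1*, which encodes a Notch ligand-like protein (4.95). Neighbors in this order overlapped between libraries, except *Igf2* with *Mest* and *Snrpn* with *Dlk1*, and the order rests on transcript lengths known for 27.5% to 100% of a gene's counts. In CPM, *Peg10* varied most over the libraries, 5.09 times from 131 to 669, then *H19*, 3.86 times from 13.5 to 52.1. *Mest* varied least, 1.36 times from 183 to 249.

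**Figure D1:**
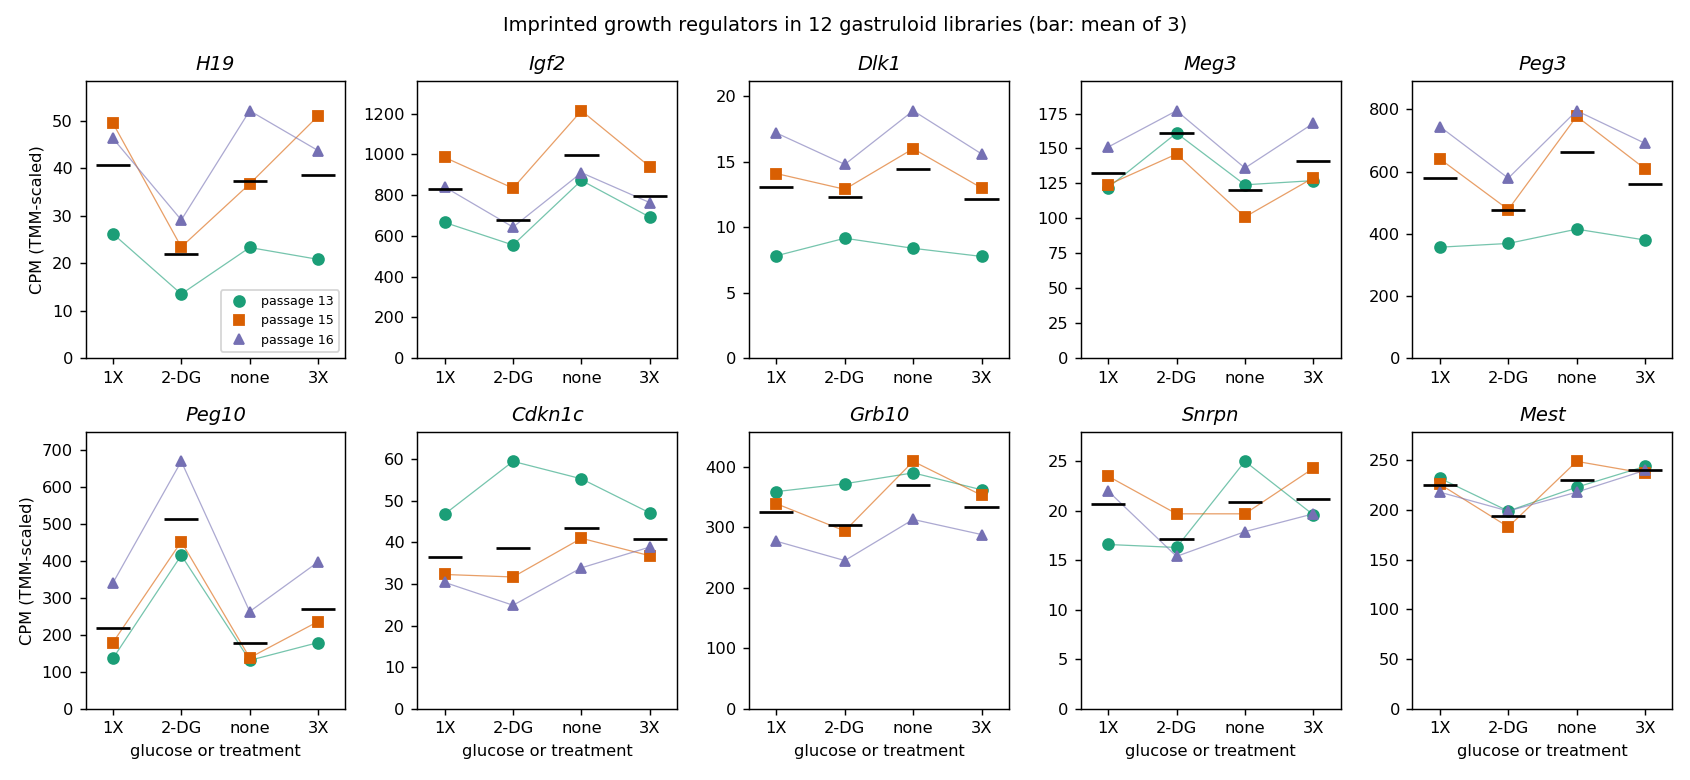
Level of each gene in CPM (vertical axis from 0, TMM-scaled) in the 12 libraries by treatment, with passages 13, 15 and 16 as circles, squares and triangles joined across treatments, and the mean of 3 libraries as a bar. *Peg10* is higher in 2-DG than in 1X glucose within each passage, and *Dlk1* and *Peg3* are lower in all 4 passage 13 libraries than in the 8 others.

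2-DG was compared with 1X glucose to ask how the imprinted growth regulators responded to the analog. Within passages *Peg10* and *Meg3* were higher and *H19*, *Igf2*, *Mest* and *Snrpn* were lower in 2-DG, in 3 of 3 passages each. *Snrpn* was at 0.984 times its 1X partner in passage 13, nearly level. The share of all genes with the same direction in 3 of 3 passages was not counted. Without a passage term, 1 of the 10 genes passed an adjusted p-value of 0.05, *Mest*, which was lower, beside 17.6% of all genes tested (9.12% higher and 8.51% lower). With the passage as a block, 6 passed, 2 higher and 4 lower, beside 41.3% of all genes (21.1% higher and 20.2% lower). The median absolute log2 fold change of the 10 genes was 0.28, against 0.20 over all genes tested.

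*Peg10* (chr6:4747306-4760517) was at 136, 179 and 340 CPM in 1X glucose and at 415, 452 and 669 CPM in 2-DG, in passages 13, 15 and 16. The groups did not overlap, and in both of them passage 16 was the highest library. 2-DG libraries held 3.06, 2.53 and 1.97 times the level of their 1X partner. Means were 218 ± 108 and 512 ± 137 CPM (SD, n = 3 each). The difference was 1.23 on the log2 scale (± 0.41 SE) and missed the threshold without a passage term (adjusted p = 0.0623). It rose by 1.31 with the passage as a block (± 0.10 SE, edgeR adjusted p = 5.74e-06), and DESeq2 called it without the block as well. Without the 1X glucose library of passage 16 it was called without the block too. Its counts were split evenly between its 2 transcripts, with 49.9% on 1 of them in 2-DG and 49.7% in 1X glucose.

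*Mest* (chr6:30733506-30748466) was at 232, 226 and 218 CPM in 1X glucose and at 199, 183 and 199 CPM in 2-DG. All 3 libraries of 2-DG lay below all 3 of 1X glucose. From a mean of 225 ± 7.17 to 194 ± 9.4 CPM (SD, n = 3 each), *Mest* fell by 0.22 on the log2 scale (± 0.06 SE, edgeR adjusted p = 0.0243). This was a level of 0.86 times the control, and its call was lost without the 1X glucose library of passage 13 or 15, without the 2-DG library of passage 15, when only these groups were fitted and without the passage 13 libraries. It was also lost with the most abundant transcript alone, where the value was −1.69 (± 2.53 SE, edgeR adjusted p = 0.847). That transcript held 45.8% of the *Mest* counts in 1X glucose and 15.7% in 2-DG. Its share was 45.9% in no glucose and 13.6% in 3X glucose, so a low share was not particular to 2-DG. With the passage as a block the *Mest* call was kept (edgeR adjusted p = 0.00709).

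*H19* (chr7:142575530-142578146), a growth-restraining RNA transcribed beside *Igf2*, was at 26.2, 49.5 and 46.3 CPM in 1X glucose and at 13.5, 23.4 and 29.1 CPM in 2-DG. Each 2-DG library held 0.474 to 0.628 times the level of its partner, yet the groups overlapped, since the passage 13 control lay below the passage 16 library of 2-DG. The log2 fold change was −0.88 without a passage term (± 0.41 SE, edgeR adjusted p = 0.164). *H19* fell by 0.90 with the block (± 0.12 SE, edgeR adjusted p = 0.000273).

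For *Igf2* the levels were 666, 985 and 840 CPM in 1X glucose and 555, 834 and 643 CPM in 2-DG. Every passage was lower in 2-DG, by ratios of 0.833, 0.847 and 0.765, and the groups overlapped. *Igf2* was at −0.29 and not called without the passage term (adjusted p = 0.334), and fell by 0.30 with it (± 0.05 SE, edgeR adjusted p = 0.000691). Both genes of this cluster, normally expressed from opposite parental copies, were called lower in the same fit.

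*Meg3* (chr12:109540996-109571729), the maternal noncoding RNA of the *Dlk1* cluster, was at 122, 124 and 151 CPM in 1X glucose and at 161, 146 and 177 CPM in 2-DG. It was higher in each passage, and the lowest 2-DG library was below the highest control. With the passage as a block *Meg3* rose by 0.29 (± 0.06 SE, edgeR adjusted p = 0.00273), and without it the same log2 fold change was not called (adjusted p = 0.19). *Peg3* (chr7:6703892-6730462) was at 357, 641 and 745 CPM in 1X glucose and at 369, 478 and 579 CPM in 2-DG. Passages 15 and 16 were lower in 2-DG, at 0.746 and 0.778 times the control, whereas passage 13 was at 1.03 times. *Peg3* was called with the block at −0.24 (adjusted p = 0.0375) and not without it (−0.29, adjusted p = 0.609).

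The other 4 genes were called in neither fit. *Dlk1* had a log2 fold change of −0.09 in 2-DG (12.3 ± 2.85 against 13 ± 4.77 CPM), *Cdkn1c* one of 0.08 (38.7 ± 18.3 against 36.5 ± 9.01 CPM), *Grb10* one of −0.10 (304 ± 64.1 against 325 ± 42.6 CPM) and *Snrpn* one of −0.27 (17.2 ± 2.25 against 20.7 ± 3.63 CPM; SD, n = 3 each). *Cdkn1c* was higher in 2-DG in passage 13 (ratio 1.27) and lower in passages 15 (0.981) and 16 (0.821). Without the passage 13 libraries, an alternative chosen after seeing the data, 2 of the 10 genes were called in 2-DG, beside 20.1% of all genes, or 8 with the block, beside 33.1%.

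**Figure D2:**
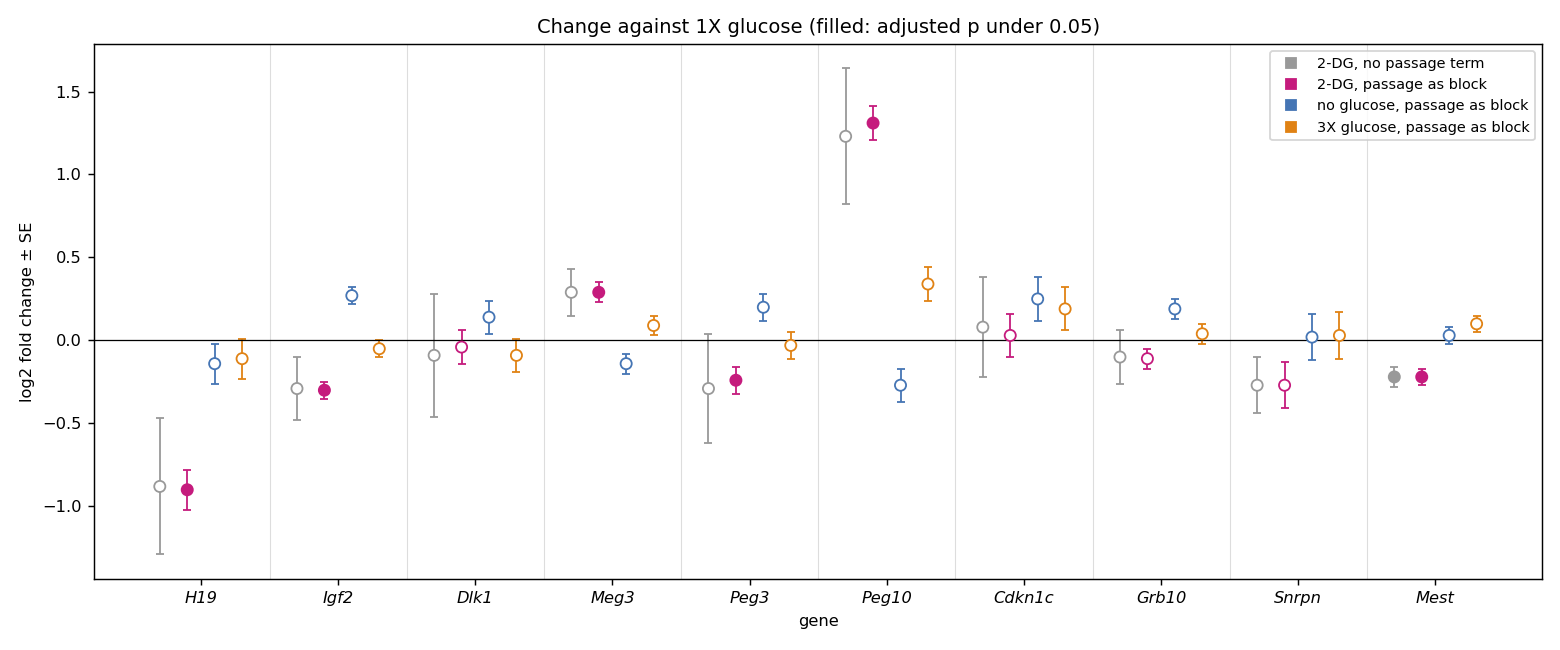
Log2 fold change ± standard error of each gene against 1X glucose, for 2-DG without a passage term and for 2-DG, no glucose and 3X glucose with the passage as a block; filled circles passed an adjusted p-value of 0.05. The grey bars of 2-DG without a passage term are wider than the pink ones with the block for *Peg10* (0.41 against 0.10) and *H19* (0.41 against 0.12), and no circle of no glucose or 3X glucose is filled.

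Not all neighbors of these genes in their clusters were called in 2-DG. *Sgce* starts next to *Peg10* and shares its control region, yet it was at 18.7 ± 1.34 CPM in 2-DG and 18.7 ± 0.409 CPM in 1X glucose, a log2 fold change of 0.00 (± 0.12 SE, edgeR adjusted p = 0.995). *Ppp1r9a* (0.49, adjusted p = 0.0454) and *Casd1* (0.24, adjusted p = 0.0463), on either side of this pair, rose in 2-DG. In the *Snrpn* cluster *Peg12* fell by 0.35 (adjusted p = 0.0314) and *Atp10a* by 0.65 (adjusted p = 0.00112), and *Magel2* was at 0.85 (adjusted p = 0.19), or 0.89 with the block (adjusted p = 6.74e-06). *Copg2*, which lies beside *Mest*, was at −0.23 and was called with the block only (adjusted p = 0.0018). *Rian*, a maternal noncoding RNA downstream of *Meg3*, was called with the block at 0.15 (adjusted p = 0.019), while *Mirg*, further downstream, was at −0.15 (adjusted p = 0.209) and the paternal *Rtl1* at 0.26 (adjusted p = 0.0862). In all, 9 of 48 other imprinted genes tested were called without the block, 6 higher and 3 lower, beside 17.6% of all genes. With the block 25 were called, 15 higher and 10 lower, beside 41.3%.

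Among imprinted genes outside these clusters, *Plagl1*, a zinc finger protein gene known to regulate other imprinted genes, rose from 21.9 ± 2.87 to 41.9 ± 9.7 CPM in 2-DG (SD, n = 3 each), or by 0.93 on the log2 scale (± 0.19 SE, edgeR adjusted p = 0.00787). *Mcts2* fell by 1.04 (adjusted p = 0.0088), *H13* rose by 0.58 (adjusted p = 0.000293) and *Blcap* rose by 0.39 (adjusted p = 0.0254). *Mcts2* lies within *H13*, so that reads could be split between them, and the strand setting of the counting is not given in the sources used here. In the IGF axis, a list that includes *Igf2* and *Grb10*, 4 of 19 genes tested were called in 2-DG, beside 17.6% of all genes. The adaptor *Grb14*, a relative of *Grb10*, rose by 1.22 from a low level of 0.784 CPM (adjusted p = 0.0322), the receptor substrate *Irs4* rose by 0.90 (adjusted p = 0.0322), and *Igf2bp2*, which encodes a protein that binds *Igf2* mRNA, fell by 0.68 (adjusted p = 0.00674). The receptor *Igf1r* fell by 0.23 (adjusted p = 0.0307). With the block 10 of the 19 were called, 3 higher and 7 lower, *Igf2* among the latter, beside 41.3% of all genes. *Cdkn1b*, a relative of *Cdkn1c*, rose by 0.58 (adjusted p = 0.0118), and the other 6 of 7 kinase inhibitors were not called. With the block *Cdkn2a* was called as well (−0.15, adjusted p = 0.016). Of 11 imprint maintenance genes tested, the methyltransferase *Dnmt3a* (−0.39, adjusted p = 0.0411) and the maintenance methylation factor *Uhrf1* (−0.26, adjusted p = 0.00501) were lower, and *Zfp57* (0.25, adjusted p = 0.0204) and *Zfp445* (0.20, adjusted p = 0.0412), which protect imprints, were higher. With the block 6 of the 11 were called, 4 higher and 2 lower. The shares of all genes were 17.6% without the block and 41.3% with it, here and for the kinase inhibitors.

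Cell type markers moved with 2-DG as well. Over all genes tested, 17.6% were called, or 41.3% with the block. The summed level of 10 mesoderm markers was 437 to 851 CPM in 2-DG and 671 to 1121 CPM in 1X glucose, with 2 of 10 tested called lower and 0 higher. These were *T* and *Mixl1*, named after their values were seen, and 4 were called lower with the block. The 8 neural markers summed to 103 to 207 CPM in 2-DG and 50.3 to 104 CPM in 1X glucose, with 4 of 7 tested called higher, or 5 with the block. *Olig2* and *Dbx1* of this list stayed below 1 CPM in each library. Pluripotency markers summed to 59.5 to 72 CPM in 2-DG and 43.4 to 59.2 CPM in 1X glucose, with 1 of 7 called, lower, or 3 higher and 1 lower with the block. The extraembryonic endoderm (254 to 366 against 232 to 290 CPM) and fibroblast lists (77.5 to 106 against 71.2 to 136 CPM) had 0 of 5 and 0 of 7 tested genes called. *Lamb1* made up most of the first sum, at a mean of 312 CPM in 2-DG and 250 CPM in 1X glucose. *Fbn1* made up most of the second, at 79.7 and 95.8 CPM. *Gata6* (−0.70), *Sox7* (−0.94), *Dab2* (−0.19) and *Gata4* (0.09) were called in neither fit. With the block, 1 of the 5, *Lamb1*, was called higher, and 2 of the 7 were called higher and 2 lower. Whether these shifts take part in the changes of *Peg10*, *H19* or the others was not tested.

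Glucose concentration was varied to ask whether glucose supply itself changes these genes. Between no glucose and 1X glucose 0 of the 10 genes were called, beside 0.0118% of all genes. An unadjusted p-value under 0.05 was found for 0 of them, beside 306 of all 16966 genes tested. DESeq2 also called 0, as did the fit with the passage as a block (beside 0.0177% of all genes, all lower). In the block fit 5 of the 10 had an unadjusted p-value under 0.05, beside 1591 of all 16966. *Igf2* was at 872, 1214 and 910 CPM in no glucose, above its 1X partner in each passage by ratios of 1.31, 1.23 and 1.08, and its log2 fold change of 0.27 was not called (adjusted p = 1, or 0.163 with the block). *Peg10* was at 131, 138 and 263 CPM, at 0.97, 0.772 and 0.772 times the control (log2 fold change −0.30, adjusted p = 1, or 0.451 with the block). *Grb10* was at 390, 409 and 313 CPM, at ratios of 1.09, 1.2 and 1.13 (0.19, adjusted p = 1, or 0.442 with the block). The remaining 7 genes lay between −0.13 (*Meg3*) and 0.25 (*Cdkn1c*). These 3 comparisons, of 2-DG, no glucose and 3X glucose, share the 1X glucose libraries.

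In 3X glucose 0 of the 10 genes were called, beside 0% of all genes, with 0 at an unadjusted p-value under 0.05, 0 called by DESeq2, and 1 at an unadjusted p-value under 0.05 with the block. *Peg10* was at 179, 236 and 397 CPM, 1.32, 1.32 and 1.17 times its 1X partner, with a log2 fold change of 0.31 (± 0.40 SE, edgeR adjusted p = 1). *Mest* was at 244, 237 and 240 CPM, just above the 3 libraries of 1X glucose (218 to 232 CPM), with a log2 fold change of 0.10 (adjusted p = 1). *H19*, at 20.8, 51 and 43.7 CPM, had a log2 fold change of −0.08, and overlapped with its control. The absolute log2 fold changes of the 10 genes had a median of 0.09, and those of all genes 0.06.

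2-DG and no glucose were compared directly, since both limit the use of glucose. Of the 10 genes 2 were called, *Peg10* higher and *Mest* lower, beside 18.9% of all genes (9.86% higher and 9.04% lower), and 7 with the passage as a block, 2 higher and 5 lower, beside 43.1% (21.5% in each direction). *Peg10* in 2-DG was at 3.15, 3.28 and 2.55 times its level in no glucose in passages 13, 15 and 16, with no overlap between groups, and rose by 1.53 on the log2 scale (± 0.41 SE, edgeR adjusted p = 0.0267). This call was lost without the no glucose library of passage 13 or 15 and without the 2-DG library of passage 15 or 16, and with the most abundant transcript alone, with adjusted p-values from 1.99e-06 to 0.0945 over the alternatives. *Mest* fell by 0.25 (± 0.06 SE, edgeR adjusted p = 0.0125), a call lost without the 2-DG library of passage 15. With the most abundant transcript alone it was lost too, at −1.72 (± 2.53 SE, edgeR adjusted p = 0.824). *Igf2* did not overlap between the groups (555 to 834 against 872 to 1214 CPM) and was at −0.56 (adjusted p = 0.0673, or 1.15e-05 with the block). *Meg3* did not overlap either, at 0.42 (adjusted p = 0.0612, or 0.000259 with the block). *Grb10*, not called against 1X glucose, was called against no glucose with the block (−0.29, adjusted p = 0.00338), as were *H19* (−0.76, adjusted p = 0.000728) and *Peg3* (−0.44, adjusted p = 0.00168).

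Passages were compared because imprints are known to drift in ESC culture. A passage label also stands for 1 set of gastruloids, so that passage, culture and set cannot be told apart, and p-values here measure agreement over the 4 treatments. Of the 10 genes, 7 differed between passage 13 and passages 15 and 16 with the treatment in the model, 5 lower and 2 higher in passage 13, beside 46.1% of all genes (23.3% higher and 22.8% lower). Of the 5 lower ones, *Igf2*, *Dlk1*, *Peg3* and *Peg10* are paternally and *H19* maternally expressed, and the 2 higher ones, *Cdkn1c* and *Grb10*, are maternally expressed. The absolute log2 fold change of the 10 genes had a median of 0.50, that of all genes one of 0.16. Without the 2-DG libraries 7 were called as well, beside 46.1% of all genes. Leaving out 1 library gave 7 to 9, beside 34.8% to 45.6%. With the most abundant transcript alone 3 were called, beside 15.3% of all genes. *Dlk1* (−1.59 ± 1.06 SE), *Peg3* (−1.03 ± 0.52 SE) and *Cdkn1c* (1.01 ± 1.06 SE) then lost their call with a larger fold change and a wider error, and *Grb10* lost it at 0.01 ± 0.09 (SE).

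*Dlk1* (chr12:109452485-109463336) was at 7.77 to 9.16 CPM in the 4 libraries of passage 13, at 12.9 to 16 CPM in passage 15 and at 14.8 to 18.9 CPM in passage 16. Passage 13 did not overlap with the others, whichever the treatment. *Dlk1* was lower in passage 13, at 8.29 ± 0.649 CPM (SD, n = 4) against 15.3 ± 2.07 CPM (SD, n = 8), a log2 fold change of −0.87 (± 0.08 SE, edgeR adjusted p = 1e-05). *Peg3* was at 357 to 415 CPM in passage 13, at 478 to 778 CPM in passage 15 and at 579 to 796 CPM in passage 16. It did not overlap either, with a log2 fold change of −0.79 (± 0.06 SE, edgeR adjusted p = 7.05e-06).

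*H19* was at 13.5 to 26.2 CPM in passage 13, against 23.4 to 51 CPM in passage 15 and 29.1 to 52.1 CPM in passage 16. Its passage 13 library was the lowest of the 3 in each treatment, and the overlap came from the 2-DG library of passage 15. *H19* fell by 0.98 (± 0.10 SE, edgeR adjusted p = 2.38e-05), the largest change among the 10 genes, and *Igf2* fell by 0.35 (± 0.04 SE, edgeR adjusted p = 3.26e-05). *Igf2* means were 696, 993 and 789 CPM in passages 13, 15 and 16. *Peg10* was at 131 to 415 CPM in passage 13, 138 to 452 CPM in passage 15 and 263 to 669 CPM in passage 16, with overlap. Its means were 215, 251 and 417 CPM. Against passages 15 and 16 together *Peg10* fell by 0.64 (adjusted p = 6.2e-05), and both *Igf2* and *Peg10* lost their call without a term for the treatment.

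*Cdkn1c* (chr7:143458339-143461059) went the other way. It was at 46.8 to 59.5 CPM in passage 13, above the 31.7 to 41 CPM of passage 15 and the 24.9 to 38.9 CPM of passage 16, with no overlap. Its log2 fold change was 0.64 (± 0.10 SE, edgeR adjusted p = 0.000387). *Grb10* (chr11:11930499-12037428) was higher in passage 13 by 0.25 (adjusted p = 0.00125), at 371 ± 14 CPM (SD, n = 4) against 315 ± 51.2 CPM (SD, n = 8). Passage 15 had a mean of 349 CPM and overlapped with passage 13, and passage 16 had a mean of 281 CPM. *Meg3* (−0.07, adjusted p = 0.216), *Snrpn* (−0.07, adjusted p = 0.653) and *Mest* (0.02, adjusted p = 0.66) were not called. *Snrpn* (chr7:59982495-60450177) was at 16.3 to 25 CPM in passage 13 and 15.4 to 24.3 CPM in the others, and it shares transcripts with *Snurf*, so that its counts are uncertain.

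**Figure D3:**
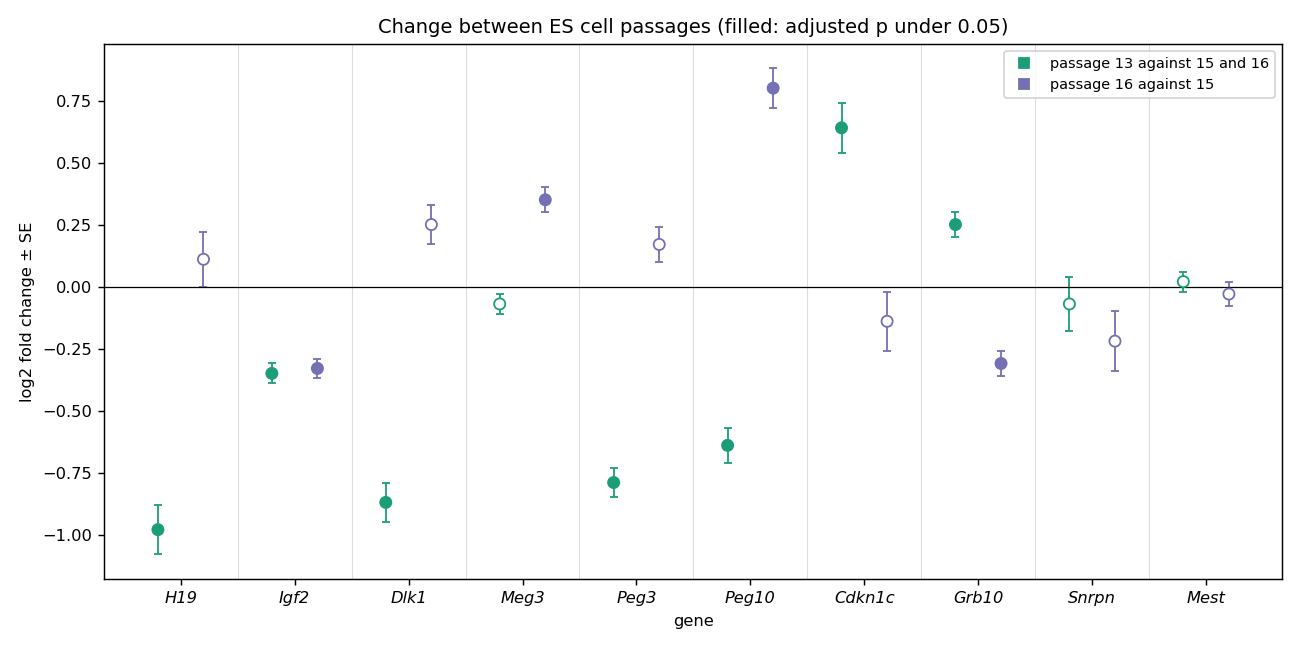
Log2 fold change ± standard error of each gene between passage 13 and passages 15 and 16 (green) and between passage 16 and passage 15 (violet), with the treatment in the model; filled circles passed an adjusted p-value of 0.05. *H19*, *Dlk1*, *Peg3*, *Peg10* and *Igf2* lie below 0 and *Cdkn1c* and *Grb10* above 0 in green, while *Peg10* and *Meg3* lie above 0 in violet.

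Between passages 16 and 15, 4 of the 10 genes differed, 2 higher and 2 lower, beside 4.2% of all genes (2.19% higher and 2.01% lower). *Peg10* rose by 0.80 in passage 16 (417 ± 177 against 251 ± 140 CPM, SD, n = 4 each, adjusted p = 0.0021), and it was higher than its passage 15 partner in 4 of 4 treatments. *Meg3* rose by 0.35 (158 ± 18.2 against 125 ± 18.8 CPM, adjusted p = 0.00908), a call lost without the 3X glucose library of passage 16. *Igf2* fell by 0.33 (789 ± 114 against 993 ± 161 CPM, adjusted p = 0.00486) and *Grb10* by 0.31 (281 ± 28 against 349 ± 47.3 CPM, adjusted p = 0.0172). The groups overlapped for all 4. Without a term for the treatment 0 were called, beside 0.053% of all genes, and with the most abundant transcript alone 0, beside 0.0476%. When 1 library was left out, *Grb10* was no longer called in 5 of 8 cases, those without the no glucose, 1X or 3X glucose library of passage 15 or the no glucose or 3X glucose library of passage 16. *Dlk1* was at 0.25 (adjusted p = 0.12), *Peg3* at 0.17 (adjusted p = 0.19) and *H19* at 0.11 (adjusted p = 0.577).

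The neighbors in each cluster were compared between passages in the same fits. In passage 13 the paternal *Dlk1* (−0.87) and *Rtl1* (−0.30, adjusted p = 0.0133) were called lower, whereas the maternal *Meg3* (−0.07) and *Rian* (−0.06, adjusted p = 0.159) were not called and *Mirg*, also maternal, was (−0.28, adjusted p = 0.00713). In passage 16 against 15 all 3 maternal RNAs rose, *Meg3* by 0.35, *Rian* by 0.33 (adjusted p = 0.0039) and *Mirg* by 0.45 (adjusted p = 0.0168), and neither *Dlk1* nor *Rtl1* (0.31, adjusted p = 0.0983) was called. No test compared the paternal with the maternal RNAs. In the *Peg3* cluster, *Usp29*, which shares the *Peg3* promoter region, fell by 0.66 in passage 13 (adjusted p = 0.000116) and *Zim1* by 1.15 (adjusted p = 0.000577). Around *Cdkn1c*, *Phlda2*, a placental growth restrainer, fell by 0.59 (adjusted p = 0.00256) and the paternal noncoding *Kcnq1ot1* by 0.43 (adjusted p = 1.03e-05), opposite to *Cdkn1c*. *Ascl2*, at a low 1.04 against 0.393 CPM, rose by 1.46 (adjusted p = 6.57e-05) and *Cd81* by 0.14 (adjusted p = 0.000421), as *Cdkn1c* did. Near *Peg10*, *Asb4* fell by 2.08 from 1.24 CPM (adjusted p = 0.00221). Over the 29 cluster neighbors tested, 13 were called lower and 4 higher in passage 13, beside 46.1% of all genes. Around *Snrpn*, *Magel2* fell by 1.03 (adjusted p = 5.78e-07), *Ndn* by 0.21 (adjusted p = 0.000245) and *Ube3a* by 0.26 (adjusted p = 0.000185), and *Mkrn3* was at 0.01 (adjusted p = 0.845).

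**Figure D4:**
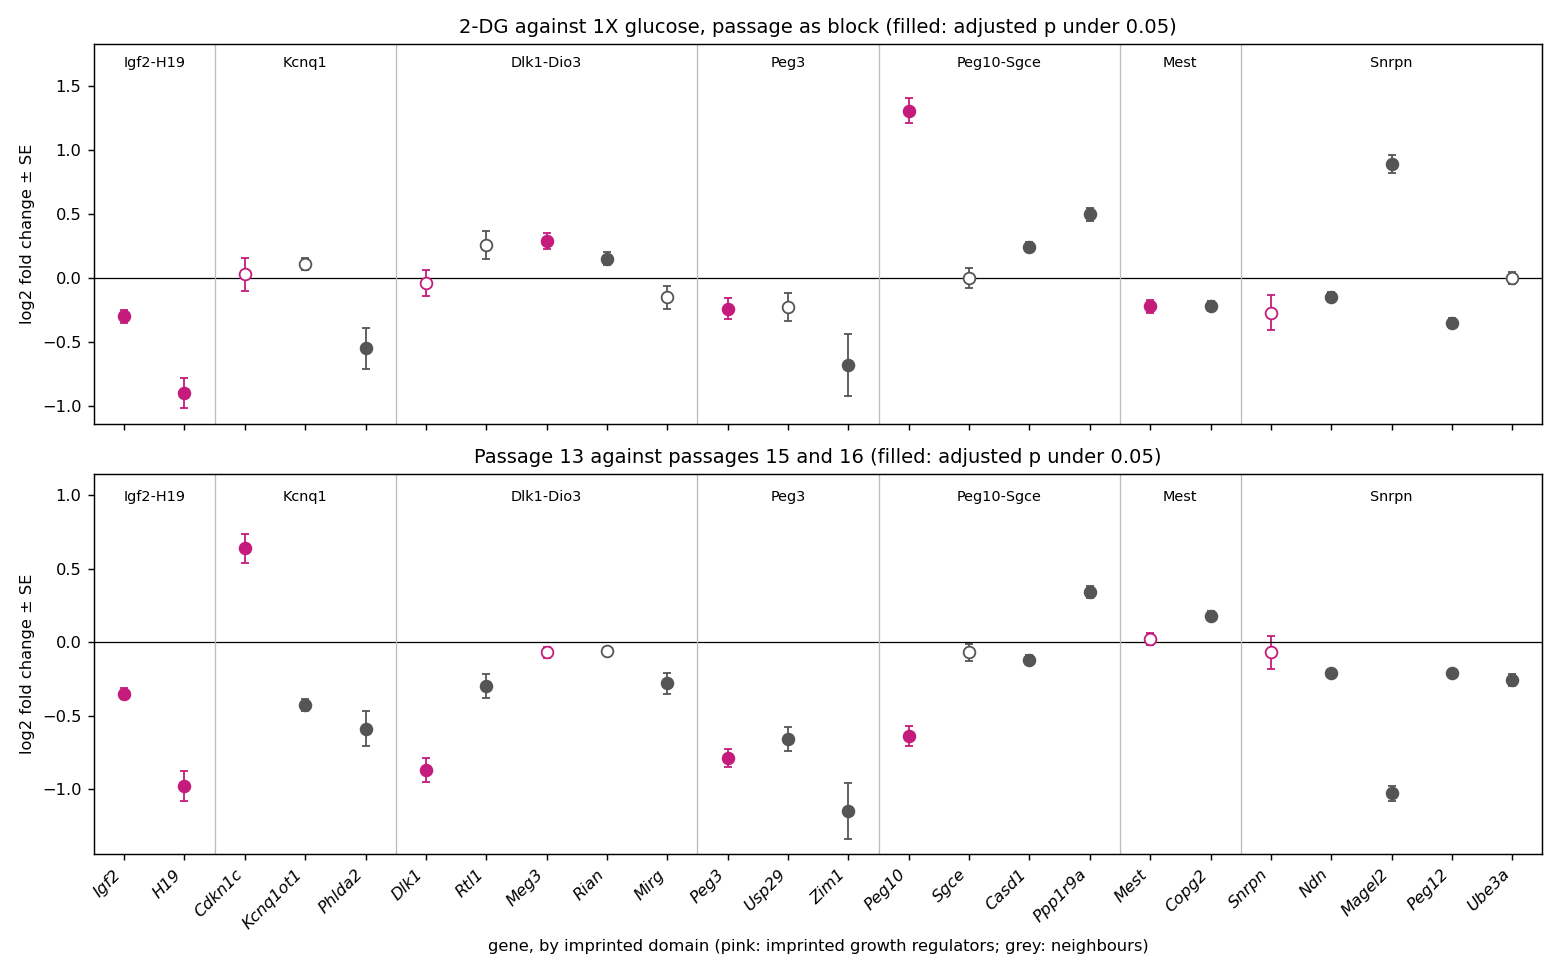
Log2 fold change ± standard error of the imprinted growth regulators (pink) and neighbors in their clusters (grey), for 2-DG against 1X glucose with the passage as a block (top) and passage 13 against passages 15 and 16 (bottom); filled circles passed an adjusted p-value of 0.05. *Peg10* stands at 1.31 in 2-DG beside *Sgce* at 0, and *Peg3*, *Usp29* and *Zim1* are all filled and below 0 in passage 13.

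Over all 48 other imprinted genes tested, 27 differed in passage 13, 22 lower and 5 higher, beside 46.1% of all genes, with a median log2 fold change of −0.20, against 0.01 over all genes. Outside the clusters above, *Nap1l5* (−1.29, adjusted p = 2.23e-06), *Sfmbt2* (−1.05), *Slc38a4*, an amino acid transporter gene (−0.74), *Nnat* (−0.67) and *Gab1* (−0.32) fell, with no overlap between passage 13 and the rest. In passage 16 against 15, 6 of the 48 were called, 4 higher and 2 lower, beside 4.2% of all genes. In the IGF axis 13 of 19 genes were called in passage 13, 5 higher and 8 lower, beside 46.1% of all genes. The binding proteins *Igfbp5* (1.78), *Igfbp2* (1.30) and *Igfbp3* (0.81), which bind IGFs outside the cell, rose, as did *Grb14* (0.61, edgeR adjusted p = 0.0157), and *Pappa*, a protease of IGF binding proteins, fell by 2.06 from 1.54 CPM. Of 11 imprint maintenance genes 5 were called, near the 46.1% of all genes, and all 5 were lower, from *Dnmt3a* (−0.26) and *Tet1* (−0.23) to *Ctcf* (−0.12), *Dnmt1* (−0.10) and *Trim28* (−0.09), and *Zfp57* was not among them. Among the kinase inhibitors *Cdkn2c* (−0.92), *Cdkn2b* (−0.56), *Cdkn1b* (−0.27) and *Cdkn2a* (−0.12) fell. *Cdkn1c* was the 1 of the 7 called higher, and *Cdkn1a* was at 0.08 (adjusted p = 0.14).

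Markers of other cells shifted with passage as well. Over all genes tested, 46.1% were called in passage 13. The mesoderm markers summed to 437 to 749 CPM in passage 13, 851 to 1213 CPM in passage 15 and 687 to 986 CPM in passage 16, with 6 of 10 called lower and 2 higher in passage 13. The neural markers summed to 86.4 to 207, 54.6 to 114 and 47.1 to 103 CPM, with 5 of 7 tested called higher and 1 lower. The 10 fibroblast markers, the feeder cell type, summed to 71.2 to 83.1, 106 to 129 and 98.3 to 136 CPM, with *Col1a1*, *Lum*, *Postn*, *Fap* and *Col6a3* below 1 CPM in each library and 4 of 7 tested called lower. Extraembryonic endoderm markers summed to 232 to 269, 263 to 366 and 287 to 345 CPM, with *Afp*, *Ttr* and *Apoa1* below 1 CPM. Of the 5 tested, 1 was called higher and 3 lower in passage 13. The 7 pluripotency markers summed to 44.1 to 72, 34.9 to 59.5 and 49.1 to 71 CPM, with 3 called higher and 2 lower. By the treatment means above, *Fbn1* and *Lamb1* made up most of the fibroblast and extraembryonic endoderm sums. The part of these shifts in the differences of *Dlk1*, *Peg3*, *H19* and *Cdkn1c* between passages was not tested.

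The profiles most like those of the 3 most variable genes were sought among 13693 genes, as the smallest root mean square difference of centered log2 CPM over the 12 libraries. Nearest to *Peg10* were *Creb3l1* (0.23), *Dlx5* (0.29) and *Stra8* (0.31), all below 10 CPM. *H19* was nearest to *Myl1* (0.17), *Shisa3* (0.18) and *Pcolce2* (0.19). For *Dlk1* they were *Dach1* (0.11), *Sema4g* (0.12) and *Zfhx4* (0.12). None of these 9 genes is on the imprinted lists used here.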

How the data were processed

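PolyA RNA of 12 gastruloid pools was sequenced, with directional libraries. The authors deposited the estimated counts of 120312 RefSeq transcripts per library, all whole numbers, so that no rounding was needed. Their notes and methods name Trim Galore, HISAT2, SAMtools, Picard (removal of duplicates) and StringTie, and the build mm10. Versions, the annotation file and the strand setting are not given in the sources used here. The authors' 3 DESeq2 tables, which hold log2 fold changes and p-values, were not used.

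Counts were added up per gene symbol (38911 genes), because StringTie splits a gene's reads between transcripts, and 16966 genes passed edgeR's filterByExpr. The 4 groups were fitted in R 4.3.3 with edgeR 4.0.16 (TMM, glmQLFit, glmQLFTest) without a passage term, and passages with the treatment as a term. Tests are two-sided, with Benjamini-Hochberg adjustment over all genes tested and a threshold of 0.05. Passage labels pair the libraries across groups. Deviations from group means correlated at 0.182 to 0.763 in all 18 pairs of 1 passage and at −0.585 to 0.317 in the 36 pairs of different passages. The block fit is therefore printed beside the counts of calls it changes against 1X glucose. The methods call the libraries of a group biological replicates and speak of treatments within the same plate, so that libraries of 1 passage may share a plate, and p-values measure the spread between these libraries. With 3 against 3, an exact permutation test cannot go below 0.1. In the files, at most 9.67% of values were identical between 2 libraries.

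The depth was 31902471 to 45956080 counts per library, and the 10 genes held 266 to 40660 counts. Levels per kilobase used GENCODE M21 transcript lengths, with unmatched transcripts given their gene's mean. Genome positions are from a RefSeq gene list (GRCm38). The fits of 2-DG against 1X glucose without a block and of passage 13 were run on simulated counts of independent libraries. The 2-DG simulation held no passage differences, and the block fit of treatments was not run on simulated counts. Alternatives were no filter, median-of-ratios factors, DESeq2 1.42.0, the most abundant transcript alone, the replicate block, only the groups compared, no treatment term, no 2-DG libraries and leaving out each library; dropping passage 13 was added after seeing the data. The 10 genes, the gene lists and the tests were chosen with earlier results of these data known. The genes named are the 10, same-cluster neighbors, at most 5 called genes per further list, and the 3 nearest profiles of the 3 most variable of the 10.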

Additional observations from a re-analysis of the deposited data

Results flagged for a closer look

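*Peg3* moved in opposite directions in different passages. Its log2 ratio of 2-DG over 1X glucose was 0.05 in passage 13, −0.42 in passage 15 and −0.36 in passage 16, 1 library against 1 in each, and the difference between passages was not tested. Groups of 3 libraries are too small for a check of single outlying libraries.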

How the results depend on the processing

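For 2-DG against 1X glucose 1 of the 10 genes was called, beside 17.6% of all genes. The count became 2 with DESeq2 (beside 21.7%), 0 with the most abundant transcript alone (3.88%) and 6 with the replicate block (41.3%). It was 0 with only the groups compared (11.5%), 2 without the passage 13 libraries (20.1%) and 8 without them in the replicate block (33.1%). Without 1 library it was 0 to 2 (10% to 13.6%). For 2-DG against no glucose the count of 2 (beside 18.9% of all genes) became 4 with DESeq2 (22.7%) and 0 with the most abundant transcript (4.61%). It was 7 with the replicate block (43.1%), 4 without the passage 13 libraries (22.6%) and 9 without them in the replicate block (35.6%). Without 1 library it was 1 to 2 (11.8% to 15.1%). With the most abundant transcript the 7 genes of passage 13 became 3 (beside 15.3% of all genes). The 4 of passage 16 against 15 then became 0 (beside 0.0476%). The latter also became 0 with no treatment term (beside 0.053%) and 2 to 4 without 1 library (beside 0.438% to 4.33%). For no glucose and 3X glucose the count stayed at 0 under each alternative run. The cause of these shifts was not tested, and the fits that leave some libraries out also rest on fewer libraries.

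With the most abundant transcript alone, which takes up how StringTie split the counts (*Cdkn1c* has 12 transcripts), *Cdkn1c* turned to −0.63 in 2-DG against 1X glucose, −2.10 in no glucose, 1.47 in 2-DG against no glucose and 0.22 in passage 16 against 15. *Dlk1* turned to −0.45 in no glucose and 0.11 in 2-DG against no glucose, *Peg3* to 0.46, *Grb10* to −0.02 and *Mest* to −1.52 in 3X glucose, and *Snrpn* to 0.13 in passage 16 against 15. Without a filter *Snrpn* turned to −0.01 in no glucose. Without the passage 13 libraries *Cdkn1c* turned to −0.15 in 2-DG against 1X glucose (−0.15 with the block) and *Snrpn* to −0.28 in no glucose (−0.28 with the block) and −0.05 in 3X glucose (−0.06 with the block). None of these was called before or after.

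Leaving out 1 library turned the sign of uncalled values only. In 2-DG against 1X glucose these were *Cdkn1c* (−0.37 to 0.32), *Dlk1* (−0.35 to 0.17) and *Grb10* (−0.27 to 0.04), and against no glucose *Cdkn1c* (−0.61 to 0.07) and *Dlk1* (−0.50 to 0.01). In no glucose they were *Dlk1* (−0.12 to 0.41), *H19* (−0.44 to 0.12), *Mest* (−0.03 to 0.06), *Peg10* (−0.70 to 0.17), *Peg3* (−0.07 to 0.43) and *Snrpn* (−0.14 to 0.11). In 3X glucose they were *Dlk1* (−0.37 to 0.15), *Grb10* (−0.06 to 0.13), *H19* (−0.34 to 0.22), *Igf2* (−0.19 to 0.08), *Meg3* (−0.05 to 0.20), *Peg10* (−0.08 to 0.79), *Peg3* (−0.31 to 0.17) and *Snrpn* (−0.10 to 0.13). Between passages they were *Mest* in passage 16 against 15 (−0.06 to 0.03) and *Snrpn* in passage 13 (−0.23 to 0.06). All called values kept their direction under every alternative run.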
